A study of Mus musculus with 12 samples.

Results

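The mast cell and basophil genes examined here were Cpa3, Mcpt8, Prss34, Fcer1a, Ms4a2, Kit, Gata2 and Hdc, 8 of the 54532 genes in the table of counts, and they were chosen by symbol because they mark mast cells, basophils and the progenitors of both. All 8 passed the filter on low counts that left 14894 genes for testing. In bone marrow cells cultured with 50 µM indole-3-propionic acid (IPA), Gata2 was 2.22-fold higher and Kit 1.36-fold lower than with vehicle, and the other 6 members did not pass the edgeR test, although Mcpt8 passed in DESeq2 (adjusted p = 0.02919). With 10 µM IPA no member passed the test against vehicle.

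The libraries came from bone marrow cells of WT C57BL/6 mice that were grown in medium with GM-CSF and IL-6, a cytokine pair that drives myeloid differentiation, and harvested on day 5. The cultures received vehicle (0.1% DMSO, 4 libraries), 10 µM IPA (4 libraries) or 50 µM IPA (4 libraries), and per the labels the agent was renewed with the medium on day 3. IPA is a tryptophan metabolite made by gut bacteria, and the study used the lower concentration as a physiological and the higher as a supraphysiological level. In such cultures the paper found slightly lower cell viability at the higher concentration, but no effect on viability at the lower. For this reason its own RNA-seq analysis centred on the lower concentration. Whether reduced viability played a part in the results at the higher concentration was not tested. The methods give age-matched adult females for the animal procedures, without naming this culture. Whether the 4 libraries of a group came from separate mice or separate cultures is not given in the sources used here, so the p-values measure the spread between these libraries, which may be technical.

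Mast cells and basophils are granulocytes that carry the high-affinity IgE receptor on their surface, and its cross-linking by antigen releases histamine and proteases from their granules. Basophils mature in the bone marrow and circulate, whereas mast cells mature in tissues, depend on the stem cell factor receptor Kit and store tryptases and chymases. The transcription factor Gata2 acts in blood stem and progenitor cells, where Kit is also expressed, and is needed for the development of both lineages. IL-3 and stem cell factor, the usual growth factors for these cells in culture, are not named in the medium.

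Library totals ran from 20451312 to 28038612 counts, and the 8 members held between 0.0342% and 0.0575% of them, with 123 to 4715 counts per member and library. Of the marker lists, that of neutrophils was the most abundant, since its 13 genes summed to 22380 to 31200 CPM (counts scaled to library size) with vehicle and the 10 macrophage markers to 2094 to 2288 CPM, against 429 to 516 CPM for the 8 members. The basophil proteases Mcpt8 and Prss34 were well detected. Of the defining proteases of mature mast cells, Tpsab1, Mcpt4, Cma2 and Mcpt9 had 0 counts in all 12 libraries, Tpsb2 had at most 13 counts in a library, Cma1 at most 3, Mcpt1 at most 9 and Mcpt2 at most 2. The mast cell receptor Mrgprb2 was also at 0 in every library. The name "mast cell genes" therefore rests here on genes shared with basophils and progenitors, and the RNA of whole cultures cannot tell fewer cells of a type from less RNA per cell.

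The members lie on 8 chromosomes. In GRCm38, the build to which the authors' mm10 alignments belong, Cpa3 (carboxypeptidase A3) lies at chr3:20215620-20242181 on the minus strand, Mcpt8 at chr14:56082166-56085273 (minus), Prss34 at chr17:25298394-25300165 (plus), Fcer1a at chr1:173221284-173227214 (minus), Ms4a2 at chr19:11615523-11623719 (minus), Kit at chr5:75574916-75656722 (plus), Gata2 at chr6:88193891-88207032 (plus) and Hdc at chr2:126593667-126619299 (minus). No exon of a member overlapped an exon of another gene in the annotation. Of the 3003 stretches of 50 bases in the transcripts of Ms4a2, 63 also occurred in its relative Ms4a4b, and of the 6376 in Hdc 9 occurred in other genes, while the other 6 members shared none, so reads could rarely be split with a paralog.

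Since Gata2, the member that rose, encodes a factor that binds GATA motifs, the 250 bases before the RefSeq start of each member were searched on both strands for AGATAA, for its variant AGATAG, and for the further variants TGATAA or, with another last base, TGATAG. Of 32817 such windows in the genome, 26.6% held at least 1 of these motifs. The windows of Cpa3, Prss34, Fcer1a and Hdc each held 1 and that of Ms4a2 held 3, whereas those of Mcpt8, Kit and Gata2 held none, Kit and Gata2 at either of their 2 listed starts. The windows of Kit and Gata2 were rich in G and C (67.2% to 74.0%), and those of the other 6 members less so (38.8% to 52.4%). The motif CANNTG, searched in the same way and found in 66.2% of all windows, occurred 3 times before Mcpt8, 2 times each before Cpa3, Prss34 and Fcer1a, 1 time before Hdc and not before Ms4a2, Kit or Gata2. A match is a stretch of letters only, and neither a match nor its absence says whether a factor binds. The sequences given here, from RefSeq on GRCm38.p6, are 3 windows with matches and that of Gata2, each read 5′ to 3′ along its gene, with the GATA matches of either strand in capitals. They are chr17:25298144-25298393 (plus), where the match lies 31 to 26 bases before the start, chr3:20242182-20242431 (minus), with its match at 46 to 41 bases, chr19:11623720-11623969 (minus), with matches at 224 to 219, 37 to 32 and 11 to 6 bases, and chr6:88193641-88193890 (plus), which holds none.
Prss34: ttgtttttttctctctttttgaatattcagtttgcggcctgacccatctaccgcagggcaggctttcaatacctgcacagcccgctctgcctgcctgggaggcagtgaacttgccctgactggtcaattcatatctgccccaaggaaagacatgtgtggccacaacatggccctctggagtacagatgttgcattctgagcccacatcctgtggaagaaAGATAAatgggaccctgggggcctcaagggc
Cpa3: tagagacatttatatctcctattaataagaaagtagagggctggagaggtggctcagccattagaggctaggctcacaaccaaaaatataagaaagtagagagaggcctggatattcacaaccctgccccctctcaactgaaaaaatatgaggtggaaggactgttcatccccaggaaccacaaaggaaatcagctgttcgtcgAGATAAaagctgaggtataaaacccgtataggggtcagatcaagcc
Ms4a2: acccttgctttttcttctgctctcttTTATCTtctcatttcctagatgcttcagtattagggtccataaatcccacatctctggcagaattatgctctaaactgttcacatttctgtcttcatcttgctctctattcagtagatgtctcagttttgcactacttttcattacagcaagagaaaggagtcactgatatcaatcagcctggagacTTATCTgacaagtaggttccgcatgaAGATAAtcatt
Gata2: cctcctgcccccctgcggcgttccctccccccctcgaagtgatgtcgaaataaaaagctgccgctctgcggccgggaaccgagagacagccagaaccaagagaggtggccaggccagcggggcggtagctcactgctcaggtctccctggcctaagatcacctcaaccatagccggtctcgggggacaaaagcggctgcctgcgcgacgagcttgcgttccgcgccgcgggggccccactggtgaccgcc

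The 3 comparisons asked whether 10 µM or 50 µM IPA differed from vehicle and whether the 2 concentrations differed from each other. Each used edgeR's quasi-likelihood test with p-values adjusted by Benjamini-Hochberg across the whole table, and the comparisons share libraries pairwise. For 10 µM against vehicle, 0 of 8 members were called at an adjusted p under 0.05, where 0.45% of all genes tested were called (67 genes). DESeq2 and limma-voom likewise called 0 members. An unadjusted p under 0.05 in edgeR was found for 3 of the 8 members, beside 1372 of the 14894 genes tested. For 50 µM against vehicle, 2 of 8 members were called, where 14.0% of all genes were. For 50 µM against 10 µM, 3 of 8 were called, where 16.1% were. The median log2 fold change of the members was -0.16, 0.13 and 0.26 in these comparisons, beside -0.01, 0.01 and 0.01 over all genes tested. Groups whose libraries did not overlap were found for 1, 2 and 2 members, where 6.13%, 20.0% and 20.3% of all genes did not overlap.

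**Figure D1:**
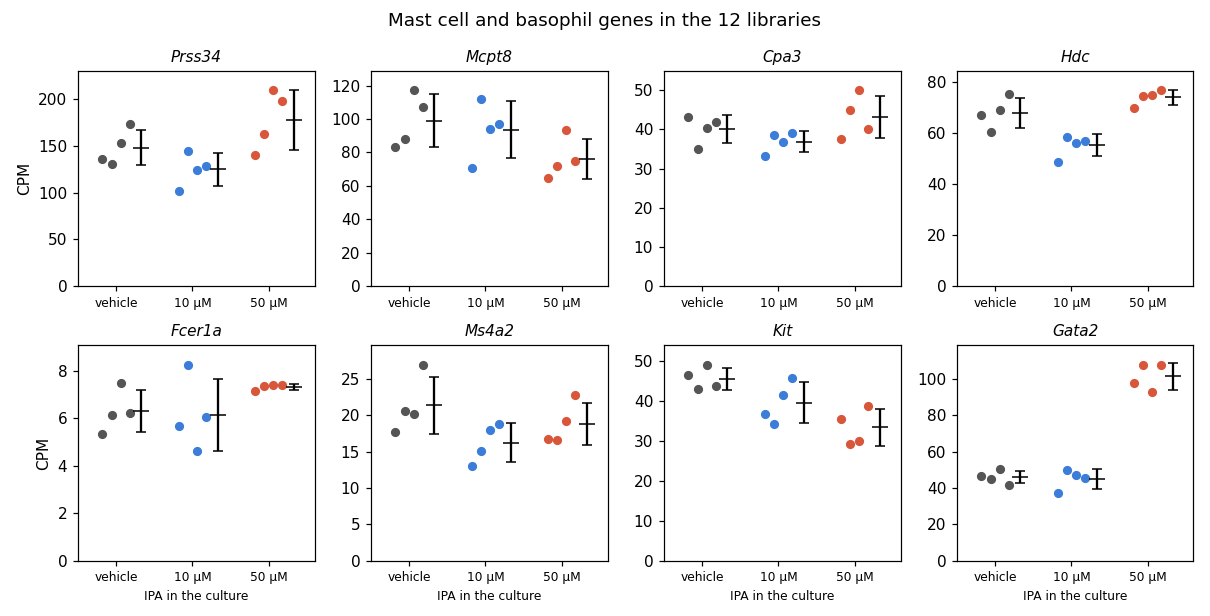
Expression of the 8 members in CPM (vertical axes, each from 0) in the 12 libraries, grouped by IPA in the culture, with 1 point per library and the mean ± SD of 4 libraries beside each group. The 4 libraries with 50 µM IPA stand at 92.8 to 107.8 CPM for Gata2, above all other libraries, and at 29.1 to 38.7 CPM for Kit, below all vehicle libraries.

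Gata2 encodes a zinc finger transcription factor of stem cells, mast cells and basophils. It stood at 46.9, 45.2, 50.5 and 41.9 CPM in the vehicle libraries, at 37.3, 50.1, 47.4 and 45.8 CPM with 10 µM IPA and at 97.9, 107.7, 92.8 and 107.8 CPM with 50 µM IPA. The 50 µM libraries were all about the same height and far from the others, while the vehicle and 10 µM libraries overlapped. The mean was 46.1 ± 3.54 CPM (SD, n = 4) with vehicle, 45.1 ± 5.52 CPM at 10 µM and 101.5 ± 7.44 CPM at 50 µM. The log2 fold change of 50 µM against vehicle was 1.15 (SE 0.0822, edgeR adjusted p = 1.503e-06), which placed Gata2 15th of the 14894 genes by p. Against 10 µM it was 1.18 (SE 0.0875, adjusted p = 2.377e-07), the 20th by p. The 10 µM level differed from vehicle by less than the spread between libraries (log2 fold change -0.03, SE 0.0962, adjusted p = 0.957).

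Kit encodes the receptor tyrosine kinase for stem cell factor. Its level was 46.5, 42.9, 48.9 and 43.7 CPM with vehicle, 36.8, 34.1, 41.5 and 45.6 CPM with 10 µM IPA and 35.5, 29.1, 30.1 and 38.7 CPM with 50 µM IPA. All 50 µM libraries were below all vehicle libraries, and the 10 µM libraries overlapped with both groups. Kit fell at 50 µM, to 33.3 ± 4.55 CPM (SD, n = 4) against 45.5 ± 2.75 CPM in the vehicle libraries, a log2 fold change of -0.44 (SE 0.0991, edgeR adjusted p = 0.008944). At 10 µM the mean was 39.5 ± 5.09 CPM, and this level passed the test neither against vehicle (log2 fold change -0.20, adjusted p = 0.5451) nor against 50 µM (-0.24, adjusted p = 0.1358). Gata2 and Kit thus moved in opposite directions at 50 µM.

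Prss34 encodes a serine protease stored in basophil granules and had the highest level of the members, also per length of exon. It measured 136.2, 130.7, 152.7 and 172.9 CPM with vehicle, 102.0, 144.7, 123.7 and 128.3 CPM at 10 µM and 140.2, 162.9, 209.3 and 198.0 CPM at 50 µM. The 50 µM group held the 2 highest libraries, but each pair of groups overlapped. Prss34 rose from 124.7 ± 17.6 CPM (SD, n = 4) at 10 µM to 177.6 ± 31.8 CPM at 50 µM (log2 fold change 0.52, SE 0.117, edgeR adjusted p = 0.00615). Against the vehicle mean of 148.1 ± 19.0 CPM the 50 µM value did not pass (0.27, SE 0.123, adjusted p = 0.1663), except without vehicle replicate 4, the highest vehicle library (0.35, adjusted p = 0.03607).

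Mcpt8 encodes another serine protease of basophils, and its fitted changes at 50 µM had the opposite sign to those of Prss34. Its libraries read 83.5, 88.2, 117.2 and 107.4 CPM with vehicle, 70.9, 112.2, 93.9 and 96.9 CPM at 10 µM and 64.7, 71.6, 93.3 and 74.6 CPM at 50 µM. Of the 50 µM libraries 3 were below all vehicle libraries, and replicate 3 lay among them. The 50 µM mean of 76.1 ± 12.2 CPM (SD, n = 4) was 1.30-fold below the vehicle mean of 99.1 ± 15.9 CPM, a difference that missed the threshold (log2 fold change -0.37, SE 0.125, edgeR adjusted p = 0.06179). This result depended on the method and on single libraries. With all libraries it passed in DESeq2 (adjusted p = 0.02919) and in edgeR without the filter on low counts (0.003673). In edgeR with the filter it passed without 50 µM replicate 3 (adjusted p = 0.02137), without vehicle replicate 1 (0.03745) and without vehicle replicate 2 (0.03596). Against 10 µM (-0.29, adjusted p = 0.1204) it passed in edgeR without the filter (0.005566), and with the filter without 50 µM replicate 3 (adjusted p = 0.03589) or 10 µM replicate 1 (0.01113).

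Cpa3 encodes the carboxypeptidase of mast cell and basophil granules. Its values were 43.05, 34.9, 40.3 and 41.8 CPM with vehicle, 33.1, 38.4, 36.8 and 39.2 CPM at 10 µM and 37.6, 45.0, 50.0 and 40.1 CPM at 50 µM. The 3 groups overlapped, and no comparison passed the test, with log2 fold changes of -0.12 at 10 µM and 0.12 at 50 µM against vehicle (edgeR adjusted p = 0.7733 and 0.4892). Between the 2 concentrations the log2 fold change was 0.24 (adjusted p = 0.0987), and it passed only without 50 µM replicate 1 (0.29, adjusted p = 0.04858). Of the 3 granule enzymes, Prss34 alone passed the edgeR test of 50 µM against 10 µM with all libraries and the filter on low counts, and Mcpt8 passed as well without the filter.

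Hdc encodes histidine decarboxylase, the enzyme that makes histamine. It stood at 66.9, 60.4, 68.8 and 74.9 CPM with vehicle, at 48.7, 58.4, 56.1 and 56.8 CPM with 10 µM IPA and at 69.7, 74.5, 74.6 and 76.6 CPM with 50 µM IPA. The 10 µM libraries were below all libraries of the other groups, while the 50 µM and vehicle libraries overlapped. Hdc was higher at 50 µM (73.8 ± 2.90 CPM, SD, n = 4) than at 10 µM (55.0 ± 4.32 CPM), with a log2 fold change of 0.43 (SE 0.0724, edgeR adjusted p = 0.0006886). Against the vehicle mean of 67.7 ± 6.01 CPM, the 10 µM level had a log2 fold change of -0.30 (SE 0.0835), which did not pass after adjustment over all genes (adjusted p = 0.2004). The 50 µM level did not pass against vehicle either (0.13, adjusted p = 0.3045).

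Fcer1a encodes the IgE-binding alpha subunit of the high-affinity receptor and had the fewest counts of the members, at 5.33, 6.13, 7.48 and 6.20 CPM with vehicle, 5.69, 8.23, 4.63 and 6.05 CPM at 10 µM and 7.13, 7.33, 7.38 and 7.39 CPM at 50 µM. These are 123 to 200 counts per library. The 50 µM libraries lay close together within the range of the others, and no comparison passed the test (log2 fold changes -0.05, 0.23 and 0.28, edgeR adjusted p = 0.9702, 0.2932 and 0.2731 for 10 µM and 50 µM relative to vehicle and for 50 µM relative to 10 µM). Ms4a2 encodes the signal-amplifying beta subunit. It measured 17.7, 20.6, 20.2 and 26.9 CPM with vehicle, 13.0, 15.1, 17.99 and 18.8 CPM at 10 µM and 16.8, 16.5, 19.2 and 22.8 CPM at 50 µM. Its 3 groups overlapped as well, and of the 10 µM libraries 2 were below all vehicle libraries. None of its log2 fold changes passed the test (-0.40, -0.17 and 0.22 in the same order, adjusted p = 0.3844, 0.4478 and 0.2803). The shared gamma subunit Fcer1g, which other Fc receptors of myeloid cells also use, had a mean of 391.7 CPM with vehicle and 410.2 CPM at 50 µM (adjusted p = 0.643).

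**Figure D2:**
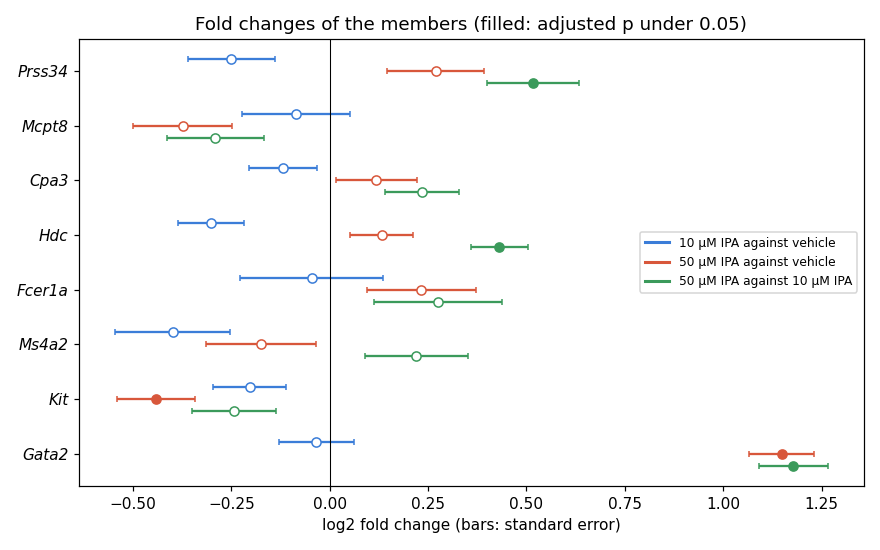
Log2 fold changes (horizontal axis) of the 8 members in the 3 comparisons, with bars of 1 standard error, from edgeR fits on 8 libraries each. Filled points have an adjusted p under 0.05, and these are Gata2 and Kit for 50 µM against vehicle and Gata2, Hdc and Prss34 for 50 µM against 10 µM.

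Across the members, the fitted log2 fold changes at 10 µM were all below 0, but 3 of them changed sign when a library was left out (Mcpt8 and Gata2 without vehicle replicate 3 or without 10 µM replicate 1, and Fcer1a without vehicle replicate 3 or without 10 µM replicate 3). At 50 µM against vehicle 5 were positive and 3 negative, and at 50 µM against 10 µM 6 were positive and 2 negative. The 10 µM library of replicate 1 was the lowest of its group for 6 of the 8 members, with a summed level of 347.4 CPM against 422.0 to 461.2 CPM in the other 3. At 50 µM replicate 1 was the lowest for 5 members, and replicate 4 the highest for 5. The calls of Gata2, Kit, Hdc and Prss34 held when any 1 library was left out, with adjusted p-values of at most 0.038 for Kit at 50 µM against vehicle and 0.02919 for Prss34 at 50 µM against 10 µM.

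Ratios of counts within a library do not depend on its depth, and they are given as a description. Gata2 and Kit had nearly equal counts with vehicle (ratio 1.01 ± 0.0394, SD, n = 4, range 0.961 to 1.05). At 10 µM the ratio was 1.16 ± 0.217 (range 1.00 to 1.47), while at 50 µM Gata2 had 3.08 ± 0.436 times the counts of Kit, with a range of 2.76 to 3.70. The ratio of Mcpt8 to Prss34 was 0.613 to 0.768 with vehicle, 0.695 to 0.775 at 10 µM and 0.377 to 0.462 at 50 µM, where no library overlapped with the other groups. Mcpt8 also stood lower against Cpa3 at 50 µM (1.59 to 1.87) than with vehicle (1.94 to 2.91) or at 10 µM (2.14 to 2.92). The ratio of Ms4a2 to Fcer1a overlapped among the 3 groups, at 2.70 to 4.33, 1.84 to 3.89 and 2.26 to 3.08.

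**Figure D3:**
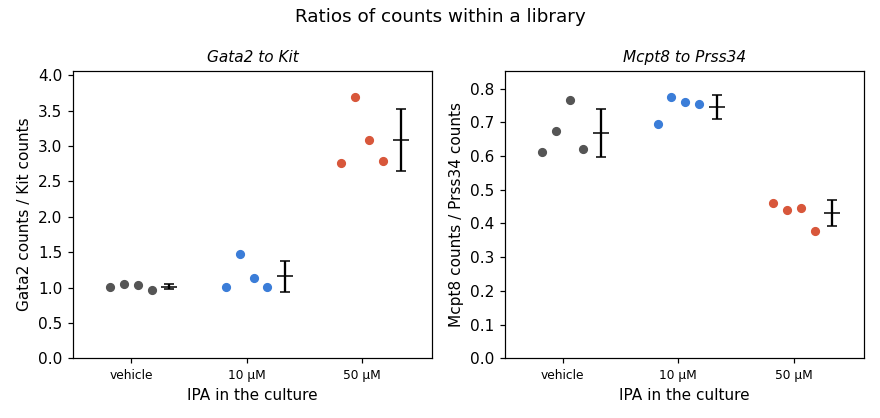
Ratio of Gata2 to Kit counts and of Mcpt8 to Prss34 counts (vertical axes from 0, no unit) in the 12 libraries by IPA in the culture, with 1 point per library and the mean ± SD of 4 libraries. The 50 µM libraries stand at 2.76 to 3.70 and at 0.377 to 0.462, apart from the other 8 libraries in both panels.

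Compared per length of exon, the level of Prss34 with vehicle was 121.4 CPM per kb and that of Mcpt8 99.3 CPM per kb, and their libraries overlapped. Cpa3 followed at 26.4, Hdc at 10.6 and Gata2 at 8.54 CPM per kb, each without overlap with the gene above it. Ms4a2 at 7.59, Fcer1a at 6.30 and Kit at 5.11 CPM per kb each overlapped with the neighbour above. At 50 µM Gata2 at 18.8 CPM per kb stood above Hdc at 11.6 CPM per kb without overlap. Fcer1a at 7.32 and Ms4a2 at 6.69 CPM per kb also changed places, but their libraries overlapped, as they did with vehicle. There, Mcpt8 at 76.2 CPM per kb no longer overlapped with Prss34 at 145.6 CPM per kb, and Kit remained the lowest at 3.74 CPM per kb.

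The genes around the members were taken from 6 lists, which together held 75 tested genes. At 10 µM against vehicle edgeR called 0 of the 75. An unadjusted p under 0.05 was found for 16 of them, beside 1372 of all 14894 genes tested. Limma-voom called 0 of the 75 and DESeq2 called 5, beside 63 and 250 genes over the whole table. Among 18 tested genes of signalling below the IgE receptor, 0 were higher and 6 lower at 50 µM than with vehicle (33.3%, beside 14.0% of all genes). These were the kinases Lyn (226.2 to 177.7 CPM on average, log2 fold change -0.34, edgeR adjusted p = 0.007074) and Syk (-0.27, adjusted p = 0.04672), the exchange factor Vav1 (-0.34, adjusted p = 0.006175), the phospholipase Plcg2 and the calcium entry proteins Stim1 and Orai1. Lyn and Vav1 passed with any 1 library left out. The other 4 did not pass in at least 1 such fit, namely Syk in 7 of 8 (adjusted p up to 0.127, without vehicle replicate 1), Plcg2 in 5 (up to 0.112, without vehicle replicate 3), Orai1 in 6 (up to 0.122, without 50 µM replicate 2) and Stim1 in 1 (0.0660, without vehicle replicate 3). Many of these genes are also used by neutrophils and macrophages.

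Of 14 tested receptor genes of the growth factor and cytokine list, which also holds the ligand gene Kitl, 5 were higher and 2 lower at 50 µM than with vehicle (50.0% called, beside 14.0% of all genes). Cd200r3, an activating receptor of basophils and mast cells, had the smallest p of them and rose from 18.3 to 47.0 CPM (log2 fold change 1.37, SE 0.0948, edgeR adjusted p = 1.087e-06), and its relative Cd200r4 rose from 43.4 to 66.2 CPM (0.61, adjusted p = 0.002298). Il1rap, the co-receptor for IL-1 and IL-33, fell from 78.5 to 56.9 CPM (-0.46, adjusted p = 0.0009335). The IL-33 receptor Il1rl1, at 20.8 CPM with vehicle and 20.5 CPM at 50 µM, did not pass (adjusted p = 0.967). Of the 5 higher genes, Il9r (0.227 to 0.493 CPM with vehicle, 1.01 to 2.39 CPM at 50 µM) and Kitl (0.371 to 0.492 and 0.879 to 1.36 CPM) had all vehicle libraries under 0.5 CPM. They were tested only because libraries with IPA passed the filter on low counts, so their calls carry no weight.

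Of 9 tested cytokine genes, 4 were higher and 0 lower at 50 µM than with vehicle (44.4% called, beside 14.0% of all genes). Csf1, the macrophage growth factor, rose from 91.5 to 187.3 CPM (log2 fold change 1.04, SE 0.0921, edgeR adjusted p = 8.494e-06), and the chemokines Ccl3 (0.67) and Ccl4 (0.58) rose as well, all of them also products of macrophages. Il13, the fourth, was called on very few reads (0.119 to 0.583 CPM with vehicle and 0.388 to 1.36 CPM at 50 µM). Its highest vehicle library was above 0.5 CPM, but it needed libraries with IPA to pass the filter on low counts. The call of Il13 was lost in 5 of 8 fits that left out a library, up to an adjusted p of 0.0937 without 50 µM replicate 2. Il4, the leading cytokine of basophils, was at 0.690 CPM with vehicle and 0.826 CPM at 50 µM (adjusted p = 0.682). Of the 10 tested genes for histamine and lipid mediators, only Ptgs1, the cyclooxygenase of prostaglandin synthesis, was called (10.0%), and it rose from 164.9 to 306.4 CPM (0.90, SE 0.0660, adjusted p = 1.767e-06). The transporter Slc18a2, which loads histamine into granules, was at 12.1 CPM with vehicle and 11.5 CPM at 50 µM (adjusted p = 0.796).

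Of 8 tested genes for granule proteases and other granule components, 0 were higher and 1 lower at 50 µM than with vehicle (12.5% called, beside 14.0% of all genes), and 8 more were too low to test, among them the tryptases and chymases above. The called gene was the protease inhibitor Serpinb1a (320.6 to 226.9 CPM, log2 fold change -0.49, edgeR adjusted p = 0.00323), which neutrophils also express. Srgn, the proteoglycan core of the granules, was at 481.3 CPM with vehicle and 509.1 CPM at 50 µM (adjusted p = 0.671). Of 16 tested transcription factors of the lineage list, 1 was higher and 3 lower (25.0% called). Zfpm1, a cofactor of GATA factors, rose from 11.4 to 20.3 CPM (0.84, SE 0.122, adjusted p = 0.0004903), and Ikzf1 fell from 310.8 to 220.6 CPM (-0.49, adjusted p = 0.0003775). The smaller decreases of Tal1 (-0.38, adjusted p = 0.02476) and Lyl1 (-0.29, adjusted p = 0.03801) were lost in 3 of 8 such fits for Tal1 (at most 0.0657, without 50 µM replicate 1) and in 6 for Lyl1 (at most 0.123, without 50 µM replicate 2). Gata1, at 5.80 CPM with vehicle and 5.41 CPM at 50 µM, did not pass (adjusted p = 0.8115), and neither did Mitf, the mast cell factor, at 45.4 and 48.8 CPM (adjusted p = 0.418).

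**Figure D4:**
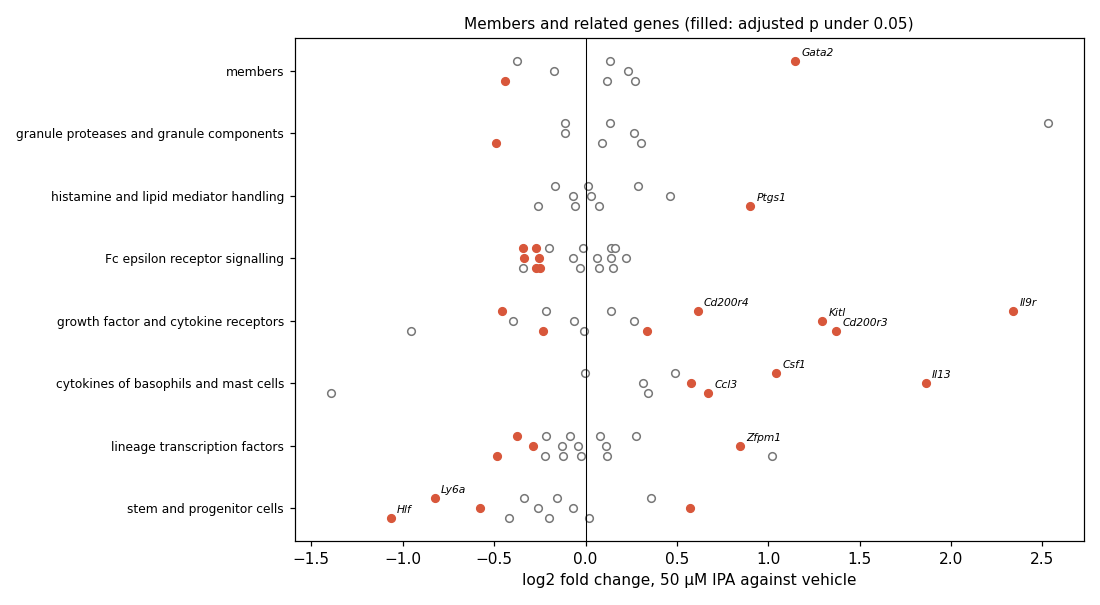
Log2 fold changes of 50 µM IPA against vehicle (horizontal axis) for the 8 members, the 6 lists of related genes and the stem and progenitor markers (rows), with 1 point per tested gene, spread vertically within a row for legibility only. Filled points have an edgeR adjusted p under 0.05, and names mark those with a log2 fold change beyond 0.6 in either direction, such as Gata2 at 1.15 and Cd200r3 at 1.37.

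At 50 µM against 10 µM the same lists gave 9 higher and 9 lower genes, 18 of 75 tested, where 16.1% of all genes tested were called. Cd200r3 (log2 fold change 1.12, edgeR adjusted p = 2.493e-06), Zfpm1 (0.88, adjusted p = 2.898e-05), Ptgs1 (0.84, adjusted p = 2.742e-07), Csf1 (0.57) and Tnf (0.68, adjusted p = 5.793e-06) were among the higher genes. The shared receptor chain Csf2rb (0.31, adjusted p = 0.007101) was another. Il1rap (-0.47, adjusted p = 0.0001911), Il4ra (-0.37), Lyn (-0.29), Vav1 (-0.25) and Ikzf1 (-0.29) were among the lower ones.

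Markers of other cell types also differed at 50 µM, in both directions, and their part in the results of the members was not tested. The shares called in these lists are read beside the 14.0% of all genes called at 50 µM against vehicle. Of 11 basophil markers, which include 7 members, 3 were higher at 50 µM than with vehicle and 0 lower (27.3% called), namely Gata2, Cd200r3 and the steroid enzyme gene Cyp11a1 (log2 fold change 0.48, edgeR adjusted p = 0.01932, lost without vehicle replicate 1 or 50 µM replicates 3 or 4, at most 0.069). The summed basophil level was 1752 to 2015 CPM with vehicle and 1989 to 2416 CPM at 50 µM, and most of it came from the widely expressed Ifitm1. Of 7 tested mast cell markers only Gata2 and Kit were called (28.6%), and 5 others were not tested. Of 12 stem and progenitor markers, which Kit and Gata2 also mark, 1 was higher (Cd34, 25.1 to 37.2 CPM, 0.57, adjusted p = 0.0006505) and 3 lower, namely Hlf (7.30 to 3.49 CPM, -1.06), Ly6a (-0.82) and Myb (-0.58), so 33.3% were called. Their summed level was 229.9 to 261.3 CPM with vehicle and 193.8 to 208.7 CPM at 50 µM.

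Of 13 neutrophil markers 1 was higher and 7 lower at 50 µM than with vehicle (61.5% called). The higher gene was Mmp9 (575.3 to 719.7 CPM, log2 fold change 0.33, edgeR adjusted p = 0.01097). The primary granule genes Elane (-1.29, adjusted p = 0.0002451), Mpo (-1.02) and Prtn3 (-0.95) were among the lower ones. The 13 genes summed to 22380 to 31200 CPM with vehicle and 16540 to 22210 CPM at 50 µM. S100a9, the most abundant of the 13, was at 8087 and 6223 CPM and did not pass (adjusted p = 0.1234). By flow cytometry of such cultures, the paper found no change in neutrophil abundance with IPA. Of 8 eosinophil markers 1 was higher and 3 lower (50.0%), the latter being Ear1 (-0.91), Ear2 (-0.80) and Ear6 (-0.86). Of 7 tested megakaryocyte and erythroid markers, lineages in which Gata2 also acts, Pf4 (0.43) and Ppbp (0.66) were higher and none lower (28.6%), with sums of 270.3 to 312 CPM and 341 to 391.8 CPM. The other tested genes of this list did not pass (edgeR adjusted p of 0.1663 or more). They were Gp6 (-0.46), Gp9 (-0.37), Epor (-0.22), Itga2b (0.04) and Hba-a1 (0.16). Of 5 tested lymphocyte markers 4 were higher (80.0%), among them the B cell genes Cd79a, Cd79b and Ms4a1, at sums of 16.3 to 22.5 CPM and 32.6 to 48.5 CPM. Of 10 macrophage markers 2 were higher and 2 lower (40.0%), and of 8 dendritic cell markers 3 and 1 (50.0%). At 10 µM against vehicle, edgeR called genes of the macrophage list, 3 higher and 0 lower (30.0%, beside 0.45% of all genes), and none of the other 8 marker lists. Of these, C1qb and Mrc1 each lost the call in 6 of 8 fits that left out a library (adjusted p of at most 0.179 and 0.145, both without 10 µM replicate 2).

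The genes whose profile over the 12 libraries was most like that of the called members at 50 µM against vehicle were ranked by the root mean square difference of log2 CPM after each gene's mean was removed, over 12606 genes. For Kit these were Mtus1 (0.0748), Tmx4 (0.0946) and Sort1 (0.0961), which on average went from 151.6 to 111.4, from 100.6 to 72.4 and from 318.4 to 252.5 CPM between vehicle and 50 µM. For Gata2 they were Padi2 (0.136), Slc1a4 (0.142) and Gpt2 (0.143), which went from 29.7 to 57.0, from 5.64 to 13.3 and from 12.0 to 28.8 CPM. No mast cell or basophil gene was among these 6.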

How the data were processed

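RNA-seq counts of 12 libraries of cultured mouse bone marrow cells were used. Reads had been trimmed by the authors (Atropos), mapped on mm10 (HISAT2 2.2.1) and assigned to Ensembl genes (featureCounts 2.0.1), and the raw counts per gene were deposited, whose strand setting is not given in the sources used here. The label of 10 µM replicate 3 repeats that of replicate 2 in its title, so the library name served instead. No pair of libraries of a group agreed within sampling noise. A gene was tested if over 0.5 CPM in 2 or more libraries, with edgeR 4.0.16 in R 4.3.3 (TMM normalization, glmQLFit with legacy = FALSE, glmQLFTest) on the 8 libraries of each comparison, and p-values were adjusted by Benjamini-Hochberg across the table and called under 0.05. The CPM shown were scaled by TMM over the 12 libraries. The script was tested on simulated counts. The members and all gene lists were chosen with earlier results of these data known. Named were all members and, from each other list, at most 6 called genes by smallest p in each comparison and the most abundant gene. Genes of the lists with too few counts to test and Fcer1g, Il1rl1, Il4, Slc18a2, Gata1 and Mitf were named beyond this rule, after their values were seen. The same holds for Mmp9, Itga2b, Gp9, Gp6, Epor and Hba-a1. Alternatives were DESeq2 1.42.0, limma-voom 3.58.1, other filters, scalings and fits, and leaving out each library. Intervals and p-values cover neither culture nor animal effects beyond these libraries. Positions and exon lengths came from GENCODE M21 (GRCm38), and promoter windows from RefSeq on GRCm38.p6. Protein sequences were not used here.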

Additional observations from a re-analysis of the deposited data

Results flagged for a closer look

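In each group of 4 libraries, the highest or lowest value was compared with the nearest other one for the members and the other genes named by the rule above. Of 228 groups from 76 genes, 10 held a library that stood apart by Dixon's criterion, and chance flags about 1 in 20 groups. None of the 10 belonged to a member.

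The libraries that stood low were those of Batf3 in 10 µM replicate 4 (8.56 CPM, others 10.5 to 10.8), Csf1 in 10 µM replicate 1 (102.4 CPM, others 132 to 137.5), Tnf in 10 µM replicate 1 (48.5 CPM, others 50.65 to 51.0), Il4ra in 10 µM replicate 2 (316.5 CPM, others 326.4 to 326.8), H2-Ab1 in 50 µM replicate 4 (393.8 CPM, others 502.2 to 505.7), Plcg2 in vehicle replicate 4 (370.9 CPM, others 400.3 to 405.2) and Stat5a in vehicle replicate 4 (50.8 CPM, others 62.1 to 64.0). Those that stood high were Ifitm1 in 50 µM replicate 3 (1755 CPM, others 1464 to 1487), Il1rap in 50 µM replicate 1 (60.3 CPM, others 55.5 to 56.0) and Stim1 in 10 µM replicate 1 (90.4 CPM, others 86.9 to 87.1).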

How the results depend on the processing

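The calls of Gata2 and Kit at 50 µM against vehicle and of Gata2, Hdc and Prss34 at 50 µM against 10 µM held in all 16 alternatives, and 0 members were called at 10 µM in any of them. Mcpt8 passed at 50 µM against vehicle in 6 of 16 alternatives, among them DESeq2 (adjusted p = 0.02919) and no filter (0.003673), and at 50 µM against 10 µM in 3. At 10 µM against vehicle the sign turned when a library was left out for Mcpt8 (log2 fold changes from -0.1839 without 10 µM replicate 2 to 0.0282 without 10 µM replicate 1), Fcer1a (-0.2038 without 10 µM replicate 2 to 0.0744 without 10 µM replicate 3) and Gata2 (-0.086 without 10 µM replicate 2 to 0.05 without 10 µM replicate 1). The number of all genes called at 10 µM was 67 in the main test, 250 with DESeq2, 183 with no filter, 128 with all 12 libraries in the fit, 3 with the replicate block and 8 (without 10 µM replicate 2) to 134 (without vehicle replicate 4) with a library left out. At 50 µM against vehicle it was 2092, and 1338 (without vehicle replicate 3) to 2807 (without vehicle replicate 4) with a library left out. Why these counts moved was not tested. With the replicate block, Mcpt8 was called in addition at 50 µM against vehicle (edgeR adjusted p = 0.009059). Deviations from the group means had correlations of -0.392 to 0.234 between libraries of the same number. Whether the numbers pair the samples is not given in the sources used here, and these correlations cannot decide it. Depth limits Fcer1a most, at 123 to 200 counts per library.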
